A study of Homo sapiens with 4 samples.

Results

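SREBF2, INSIG1, HMGCS1, IDI1, FDFT1, SQLE and LSS were followed as 7 genes of cholesterol synthesis and its control, out of 16834 genes in the expression table. They were selected by gene symbol, with earlier results of these data known, and all 7 were found in the table. Shares over all genes given beside theirs are therefore descriptions and not tests. The genes cover the regulators and enzymes of synthesis, and the uptake of lipoprotein cholesterol was not analysed here.

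RNA was sequenced from MIA PaCa-2, an established human pancreatic ductal adenocarcinoma (PDAC) cell line, labelled WT in all conditions. The cells were a control without either drug or received 1 µM neobractatin (NBT, isolated from the plant Garcinia bracteata), 5 µM trametinib (which inhibits the kinase MEK), or both agents at these doses, for 12 h. Each of the 4 conditions was 1 library, so no value has a replicate error and a comparison of conditions cannot be separated from a difference between single cultures. The cell line entries of the labels differ between the libraries, and the identity of the line was taken from the titles.

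Cells build cholesterol from acetyl-CoA through mevalonate, isoprenoid diphosphates, squalene and lanosterol. The transcription factor SREBP2, encoded by SREBF2, drives the genes of this route, including its own gene and INSIG1. When membrane sterol is plentiful, the INSIG1 protein holds the SREBP escort protein SCAP in the endoplasmic reticulum, and when sterol is short, SREBP2 travels to the Golgi, is cleaved and enters the nucleus.

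Promoter sequences were examined because SREBP2 binds sterol regulatory elements together with the CCAAT-binding factor NF-Y. RefSeq promoter windows (GRCh38.p14) were at hand for 5 of the 7 genes, namely SREBF2, INSIG1, HMGCS1, IDI1 and LSS. The 250 bases before the start site were searched on both strands for TCACNCCAC, a form of the sterol regulatory element, and for CCAAT, which reads ATTGG on the opposite strand. The table gives several windows for genes with several start sites, 2 for HMGCS1, 3 for IDI1 and 1 for each of the others, or 8 in all. For each gene the window with the most matches is shown in the direction of transcription, with the matches to either motif in capitals. The windows lie at chr22:41832855-41833104 (plus strand) for SREBF2, chr7:155297628-155297877 (plus strand) for INSIG1, chr5:43313413-43313662 (minus strand) for HMGCS1, chr10:1048887-1049136 (minus strand) for IDI1 and chr21:46228775-46229024 (minus strand) for LSS.
SREBF2: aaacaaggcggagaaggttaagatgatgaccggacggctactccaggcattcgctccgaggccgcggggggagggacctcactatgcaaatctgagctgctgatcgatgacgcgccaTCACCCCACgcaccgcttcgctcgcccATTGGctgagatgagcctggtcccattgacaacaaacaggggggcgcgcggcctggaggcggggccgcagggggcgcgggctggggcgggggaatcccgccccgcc
INSIG1: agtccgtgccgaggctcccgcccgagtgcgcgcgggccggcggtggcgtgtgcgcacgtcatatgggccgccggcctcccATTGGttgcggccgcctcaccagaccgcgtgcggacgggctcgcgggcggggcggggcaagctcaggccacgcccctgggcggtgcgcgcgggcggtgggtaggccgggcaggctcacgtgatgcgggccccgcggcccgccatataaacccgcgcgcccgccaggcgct
HMGCS1: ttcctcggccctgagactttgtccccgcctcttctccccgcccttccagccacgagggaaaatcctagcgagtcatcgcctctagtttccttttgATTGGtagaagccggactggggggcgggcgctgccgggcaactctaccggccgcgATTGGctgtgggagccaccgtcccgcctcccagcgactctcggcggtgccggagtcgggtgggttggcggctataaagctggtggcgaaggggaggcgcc
IDI1: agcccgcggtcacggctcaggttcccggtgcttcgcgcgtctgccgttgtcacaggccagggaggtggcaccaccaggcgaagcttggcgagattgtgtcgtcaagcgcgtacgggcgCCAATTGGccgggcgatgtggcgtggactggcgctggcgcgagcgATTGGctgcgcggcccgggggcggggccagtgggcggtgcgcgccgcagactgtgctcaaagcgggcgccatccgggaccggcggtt
LSS: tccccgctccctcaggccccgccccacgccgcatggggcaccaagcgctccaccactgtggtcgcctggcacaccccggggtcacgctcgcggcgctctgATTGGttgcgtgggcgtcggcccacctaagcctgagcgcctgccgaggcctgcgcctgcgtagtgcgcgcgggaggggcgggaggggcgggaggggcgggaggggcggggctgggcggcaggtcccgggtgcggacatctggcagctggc

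TCACNCCAC was found in 1 of the 8 windows, that of SREBF2, as TCACCCCAC beginning 133 bases before the start site. Over all promoter windows of this length, TCACNCCAC was in 310 of 35116 (0.883%). A CCAAT match was in 6 of the 8 windows, against 32% of all windows. By gene, all 5 had a match in at least 1 window, against 37% of all 27305 genes with an entry, and a gene with more windows has more chances of a match. The matches began 106 bases before the start in SREBF2, 170 in INSIG1, 150 in LSS and both 155 and 100 in the HMGCS1 window shown. The IDI1 window shown held matches at 132, 129 and 87 bases, and the first pair overlapped. Of the other IDI1 windows, chr10:1049120-1049369 held matches at 215 and 117 bases and chr10:1056705-1056954, at the outermost start of the gene, held none, and the other HMGCS1 window held none. These matches describe the letters in the windows, and binding of either factor was not measured. A window without TCACNCCAC says only that these letters were not found there.

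The libraries held between 18776212 and 19614763 estimated reads each. Levels are given as TPM, a relative abundance corrected for gene length and scaled to the same sum in each library, so that genes can be compared within a library. Differences are given as log2 ratios of estimated read counts scaled to the library sum with 0.5 reads added, with 95% intervals that cover counting error only. A gene was called between a pair of libraries when the adjusted value of an exact binomial test of its counts was at most 0.05 and its counts differed at least 2-fold. Such a call compares libraries and not conditions, so no p-value is given. In bulk RNA, fewer cells with a transcript and less of it per cell cannot be told apart.

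Marker genes were read beside the labels. They were not compared with a reference profile of MIA PaCa-2, so the identity of the line was not tested. KRT8 and KRT18, epithelial keratins, were at 1493 to 3799 and 995 to 3142 TPM, and EPCAM was at 209 to 242 TPM, while the mesenchymal filament gene VIM was low at 11.48 to 26.39 TPM. Some of these markers differed along with trametinib: VIM was called higher (2.08-fold, and 2.37-fold with the combination), KRT18 was called lower (2.95-fold and 3.07-fold), and KRT8 was called lower with the combination (2.48-fold). Their part in the results for the 7 genes was not tested. Of the markers of other cell types in the table, the leukocyte gene PTPRC had 8 to 17 counts, the endothelial gene PECAM1 14 to 26, the fibroblast gene COL1A1 27 to 98 (called higher with trametinib, 2.15-fold) and the hepatocyte gene ALB 0 to 7. CD3E, a T cell gene, had 0 counts in the control and NBT libraries, 55 with trametinib and 29 with the combination, and its part in any result here was not tested. All 8 genes of a list of ERK output (DUSP6, SPRY2, SPRY4, ETV4, ETV5, PHLDA1, FOSL1 and EGR1) were called lower than the control in both libraries that received trametinib, with a median log2 ratio of -3.27 for trametinib and -2.77 for the combination, which ran from -5.18 (DUSP6) to -1.45 (SPRY2). ETV5 was called higher with NBT (1.03), and SPRY2 (1.03) and FOSL1 (1.61) were called higher in the combination against trametinib.

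The 7 genes lay on opposite sides of the control with the single drugs. Their summed level was 368.84 TPM (control), 186.3 TPM (NBT), 632.62 TPM (trametinib) and 207.82 TPM (combination). The NBT and combination libraries were thus below the control, and the trametinib library was above it. The same order held for the share of all reads, which was 0.0582% (control), 0.0304% (NBT), 0.102% (trametinib) and 0.0348% (combination). For each of the 7 genes, the trametinib library was the highest of the 4 and the control the next, with both libraries that received NBT below them. In the control library the levels ran from 87.59 TPM for FDFT1 through IDI1, SREBF2, SQLE, INSIG1 and HMGCS1 to 30.21 TPM for LSS. With 1 library per condition there was no spread over samples with which to separate neighbours in this order, such as FDFT1 and IDI1 at 86.42 TPM.

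**Figure D1:**
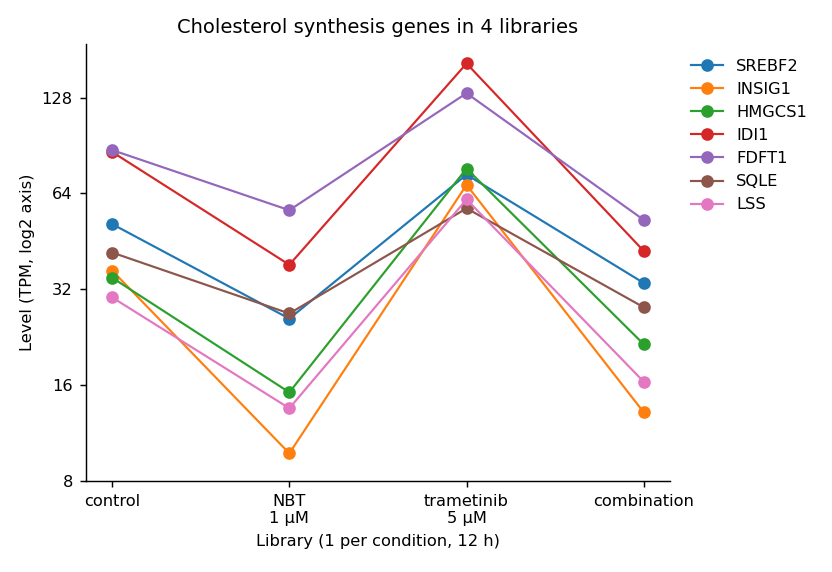
Level of the 7 cholesterol synthesis genes in each library, in TPM on a log2 axis. Each point is 1 library (control, NBT, trametinib, combination) and each colour 1 gene, whose points are joined by lines. Every gene is highest with trametinib and lies below the control in both libraries that received NBT.

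SREBF2 encodes the transcription factor of the pathway. It was at 51.32 TPM (control), 25.91 TPM (NBT), 73.33 TPM (trametinib) and 33.51 TPM (combination). The trametinib library was the highest of the 4 and the NBT library the lowest. Its log2 ratio to the control was -0.92 (-1.02 to -0.83) with NBT, 0.55 (0.48 to 0.62) with trametinib and -0.57 (-0.66 to -0.48) with the combination. None of these reached 2-fold.

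INSIG1, the sterol-dependent brake on SREBP2, had the lowest ratio of the 7 genes with NBT. Its level was 36.68 TPM (control), 9.79 TPM (NBT), 68.09 TPM (trametinib) and 13.16 TPM (combination). The NBT library held 295 reads of INSIG1 against 1025 in the control, a log2 ratio of -1.85 (-2.04 to -1.66) or 3.59-fold lower. This ratio lay at percentile 0.13 of the ratios of all genes with at least 50 counts. With trametinib the log2 ratio was 0.915 (0.81 to 1.03), short of 2-fold, and with the combination it was -1.43 (-1.61 to -1.27).

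HMGCS1 makes HMG-CoA, the precursor of mevalonate, and IDI1 interconverts the isoprenoid diphosphates further down the route. HMGCS1 was at 34.84 TPM (control), 15.21 TPM (NBT), 76.62 TPM (trametinib) and 21.52 TPM (combination). It was the gene of the 7 with the highest ratio for trametinib, 1.17 (1.08 to 1.26) on the log2 scale, against -1.14 (-1.27 to -1.003) for NBT and -0.66 (-0.78 to -0.54) for the combination. IDI1 was at 86.42 TPM (control), 38.23 TPM (NBT), 163.71 TPM (trametinib) and 42.23 TPM (combination), the highest level of any of the 7 genes in the trametinib library. Its log2 ratio was -1.005 (-1.12 to -0.89) with NBT, 0.91 (0.83 to 0.99) with trametinib and -0.91 (-1.02 to -0.80) with the combination. IDI1 thus sat at the 2-fold limit with NBT, and its combination library lay close to its NBT library.

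FDFT1, SQLE and LSS carry the route from farnesyl diphosphate to the first sterol. FDFT1, squalene synthase, was at 87.59 TPM (control), 56.71 TPM (NBT), 132.09 TPM (trametinib) and 52.86 TPM (combination). It was the only one of the 7 genes with a lower level in the combination than with NBT alone. SQLE, squalene epoxidase, was at 41.78, 26.89, 57.48 and 28.12 TPM in the same order of libraries. LSS, lanosterol synthase, was at 30.21, 13.56, 61.30 and 16.42 TPM. As a ratio of the highest to the lowest library, LSS spanned the widest range of these 3 enzymes and SQLE the narrowest, while in TPM the range of FDFT1 was the widest.

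The squalene enzymes had smaller ratios than LSS in both single-drug libraries. With NBT the log2 ratio was -0.55 (-0.66 to -0.44) for FDFT1, -0.58 (-0.71 to -0.45) for SQLE and -1.09 (-1.24 to -0.96) for LSS. With trametinib it was 0.615 (0.53 to 0.70) for FDFT1, 0.48 (0.37 to 0.59) for SQLE and 1.04 (0.95 to 1.14) for LSS. The counting intervals of LSS overlapped neither of the others in either library. With the combination the ratios were -0.68 (-0.79 to -0.57), -0.54 (-0.67 to -0.41) and -0.83 (-0.96 to -0.70), and here the intervals of FDFT1 and LSS overlapped.

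**Figure D2:**
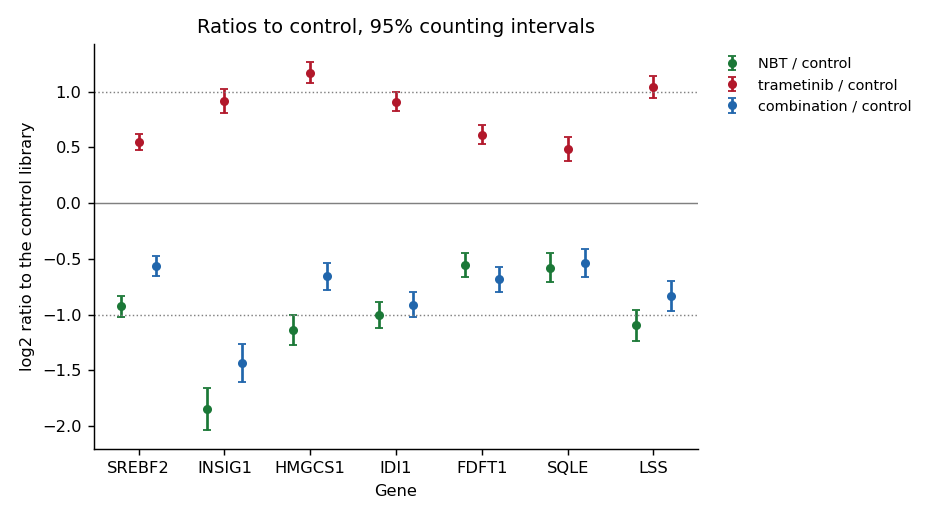
Log2 ratio to the control library for each of the 7 genes, with 95% counting intervals. Colours mark NBT, trametinib and the combination, and dotted lines mark 2-fold. All NBT and combination points lie below 0 and all trametinib points above it, and INSIG1 is the lowest with NBT at -1.85.

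In the comparison of NBT with control, 4 of the 7 genes were called lower (INSIG1, HMGCS1, IDI1 and LSS) and 0 higher, where 1.13% of 15888 genes tested were called lower and 1.63% higher. The median log2 ratio of the 7 was -1.005, beside -0.0041 over 11367 genes with at least 50 counts. SREBF2, FDFT1 and SQLE were below the control by less than 2-fold. IDI1, at -1.005, passed the limit narrowly, and with edgeR's TMM factors 3 genes were called, without IDI1. With an assumed coefficient of variation between cultures of 0.2 in a negative binomial test INSIG1 alone was called, and with 0.4 none was.

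In the comparison of trametinib with control, 2 of the 7 genes were called higher (HMGCS1 and LSS) and 0 lower, where 3.86% of 16197 genes were called higher and 2.28% lower. The median of the 7 was 0.91 against 0.06 over all genes. LSS passed the limit narrowly: with TMM or median-of-ratios scaling only HMGCS1 was called, and with either assumed coefficient of variation none was. INSIG1 and IDI1 were at 1.89-fold and 1.88-fold the control, and SREBF2, FDFT1 and SQLE at 1.46-fold, 1.53-fold and 1.40-fold.

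In the comparison of the combination with control, INSIG1 was the 1 gene of the 7 called lower, where 3.83% of 16229 genes were called lower and 4.89% higher. All 7 genes had intervals below 0, and their median was -0.68 against 0.02 over all genes. Of 11367 genes with at least 50 counts, 5438 had a ratio below 0, and how many had such an interval was not counted. INSIG1 was 2.70-fold lower and was not called with a coefficient of variation of 0.4, and the others were between 1.45-fold (SQLE) and 1.88-fold (IDI1) lower. These 3 comparisons share the control library, so a high or low count there would enter each of them.

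The comparison of the combination with trametinib asks what NBT added in cells that received the MEK inhibitor, and it does not use the control library. It shares the trametinib library with the comparison of trametinib with control, so a high or low count there would enter both, in opposite directions. All 7 genes were called lower, where 3.73% of 16343 genes were called lower and 2.64% higher. These calls rest on counting error: with a coefficient of variation of 0.2, 4 of the 7 were called, and with 0.4 none was. INSIG1 was 5.09-fold lower, with 396 reads against 1951. LSS was 3.67-fold lower, HMGCS1 3.55-fold and IDI1 3.53-fold. FDFT1 was 2.46-fold, SREBF2 2.17-fold and SQLE 2.03-fold lower. The log2 ratios ranged from -2.35 (-2.51 to -2.19) for INSIG1 to -1.02 (-1.14 to -0.90) for SQLE, with a median of -1.82 against -0.03 over all genes. SQLE was the gene nearest the limit, and with TMM or median-of-ratios scaling 6 genes were called, without SQLE.

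The comparison of the combination with NBT asks what trametinib added in cells that received NBT. None of the 7 genes was called, where 2.38% of 16250 genes were called higher and 2.16% lower. By counting error alone, SREBF2 (0.36, 0.26 to 0.46), INSIG1 (0.41, 0.19 to 0.63), HMGCS1 (0.48, 0.33 to 0.62) and LSS (0.26, 0.11 to 0.42) were higher on the log2 scale. The intervals of IDI1 (0.09, -0.04 to 0.22) and SQLE (0.04, -0.10 to 0.18) included 0. FDFT1 was lower, at -0.13 (-0.25 to -0.01). The median of the 7 was 0.26 against 0.02 over all genes. Of 11367 genes with at least 50 counts, 6130 had a ratio above 0, and how many had an interval above 0 was not counted. The ratios of the 7 genes for trametinib without NBT, given above, ran from 0.48 to 1.17.

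The gap between these ratios was taken as the departure from additivity, the log2 ratio of the combination minus the sum of the single-drug ratios. For HMGCS1 the single-drug ratios summed to 0.04, while the measured ratio of the combination was -0.66. The departure was -0.69 (-0.86 to -0.53), so the combination library held less HMGCS1 than the sum of the single drugs. IDI1 departed by -0.82 (-0.97 to -0.66), LSS by -0.78 (-0.96 to -0.60) and FDFT1 by -0.75 (-0.89 to -0.60). INSIG1 departed by -0.50 (-0.75 to -0.26), SQLE by -0.44 (-0.62 to -0.27) and SREBF2 by -0.19 (-0.32 to -0.07). The regulator SREBF2 was the nearest to additivity. All 7 counting intervals lay below 0, where 24% of 11367 genes had such an interval and the median of all genes was -0.03. Intervals narrow as reads rise, and the 11367 genes include genes with fewer reads than these 7. The 24% is therefore not matched for reads. None of the 7 departed by 1 or more, where 2.33% of all genes did. Each departure draws on all 4 libraries, the same for every gene, so the 7 genes are not 7 independent measurements of it.

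**Figure D3:**
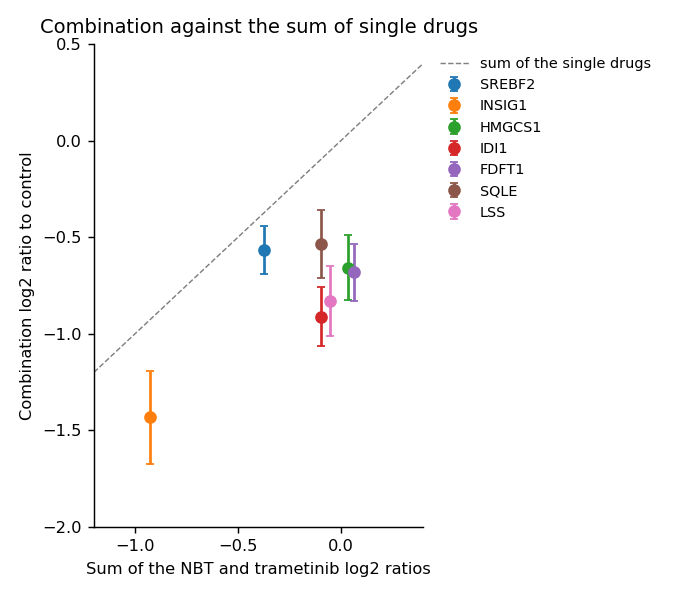
Log2 ratio of the combination to the control against the sum of the log2 ratios of the single drugs, for the 7 genes. The dashed line marks equality and error bars are the 95% counting interval of the departure from it. All 7 points lie below the line, from SREBF2 (-0.19) to IDI1 (-0.82).

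Further enzymes of the route were examined as a list of 13 genes, of which 11 had at least 50 counts in at least 1 library and ACAT2 and DHCR7 had at most 11. With NBT all 11 were below 0 (median -0.53) and 0 were called. With trametinib all 11 were above 0 (median 0.50) and 2 were called higher. In the combination against trametinib all 11 were below 0 (median -0.965) and 5 were called lower. The list thus had the same signs as the 7 genes with medians nearer to 0. Against the control, 10 of the 11 were below 0 in the combination, with a median of -0.42 and 0 genes called. Over 11367 genes with at least 50 counts, 5752 were below 0 with NBT and 6563 above 0 with trametinib. In the combination, 6028 were below 0 against trametinib and 5438 against the control.

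TM7SF2, a sterol reductase, had 181 reads (control), 122 (NBT), 896 (trametinib) and 315 (combination), with log2 ratios to control of -0.62, 2.29 and 0.73. It was called higher with trametinib and in the combination against NBT, where its log2 ratio was 1.35. MVK, mevalonate kinase, had 684, 399, 1434 and 431 reads in the same order. MVK was the other gene called higher with trametinib and passed the limit narrowly, at 1.05. It was also the lowest of these 11 enzymes in the combination against control, at -0.73. In the combination against trametinib MVK (-1.78), MVD (-1.38), MSMO1 (-1.58), EBP (-1.05) and TM7SF2 (-1.56) were called lower.

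Among 6 genes of SREBP processing and its partners, STARD4, a sterol carrier, was the 1 gene called. It had 458 reads (control), 226 (NBT), 928 (trametinib) and 329 (combination). Like the 7 genes, it was highest with trametinib and below the control in both libraries that received NBT. Its log2 ratios were -1.07, 1.00 and -0.54, and -1.54 in the combination against trametinib. INSIG2, the paralog of INSIG1, had 282, 410, 286 and 494 reads. Its log2 ratios were 0.49 with NBT and 0.74 with the combination, the opposite sign to INSIG1. SREBF1, the gene of the related factor SREBP1, was at -0.38, 0.05 and -0.43 and was not called, and SCAP was at -0.37, -0.20 and -0.41. The medians of the 6 genes were -0.10, 0.06 and -0.13.

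Genes that use or move the products of the route were examined as further lists. Over all genes, between 1.13% and 4.89% were called in each direction of a comparison, so lists of this size would hold few calls at that share. Of 8 genes of the isoprenoid branch, none was called in any of the 5 comparisons, with medians of 0.13 for NBT, 0.04 for trametinib and 0.21 for the combination, and the highest and lowest in the combination were DHDDS (0.80) and FNTB (-0.64). Of 9 genes of sterol storage, egress and efflux, 7 had at least 50 counts, and NPC1, the lysosomal cholesterol exporter, was the 1 gene called. NPC1 had 1123 reads (control), 1947 (NBT), 796 (trametinib) and 1937 (combination), so its NBT library lay above the control and its trametinib library below it, the reverse of the 7 genes. It was called higher in the combination against trametinib at 1.23 on the log2 scale. NPC2 was the lowest of this list in the combination against control, at -0.51.

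In the fatty acid arm, whose genes are SREBP1 targets in textbook accounts, 8 genes were examined. SCD, stearoyl-CoA desaturase, had 3080 reads (control), 738 (NBT), 6675 (trametinib) and 674 (combination). It was likewise highest with trametinib, with log2 ratios of -2.11, 1.10 and -2.25, and -3.36 in the combination against trametinib. FASN, fatty acid synthase, had 11279, 5250, 10684 and 3785 reads and was called lower with NBT (-1.15), with the combination (-1.64) and in the combination against trametinib (-1.55), but lay at -0.09 with trametinib. ELOVL6 was called lower with the combination (-1.31), and ACACA in the combination against trametinib (-1.17). FADS2 was the highest of the list in the combination against control, at 0.89, and was not called. The medians of the 8 genes were -0.46, 0.14 and -0.85.

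**Figure D4:**
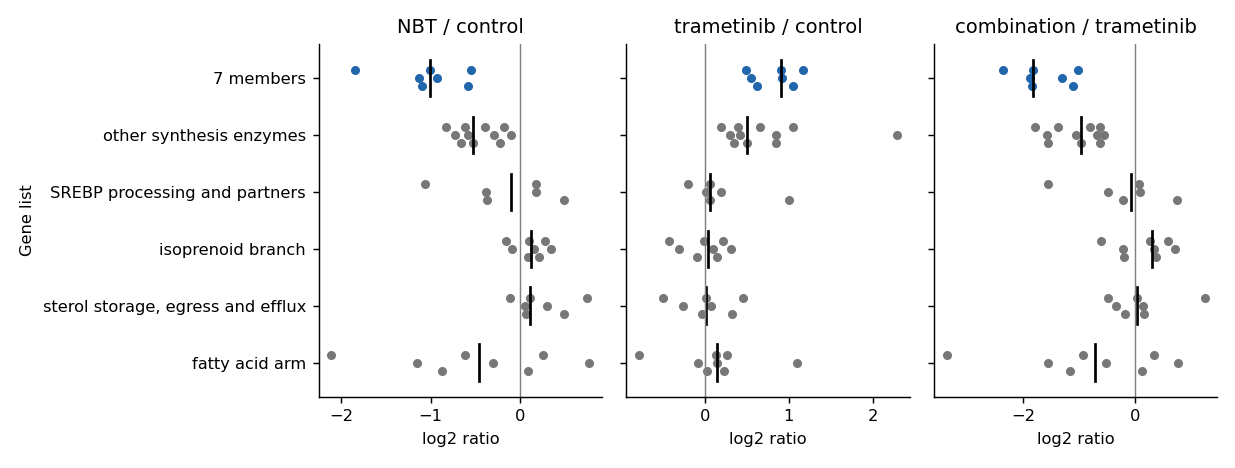
Log2 ratios of genes with at least 50 counts in the 7 genes and in the fixed lists, in panels for NBT to control, trametinib to control and combination to trametinib. Each point is 1 gene and each bar the median of its list. The 7 genes have medians of -1.005, 0.91 and -1.82, and the 11 other synthesis enzymes -0.53, 0.50 and -0.965.

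An opposite response of at least 2-fold to both single drugs was uncommon in the table. Of 11367 genes with at least 50 counts, 37 were at least 2-fold lower with NBT and at least 2-fold higher with trametinib. HMGCS1 and LSS were 2 of the 37, and SCD and STARD4 were 2 more from the other lists. The rest of the 7 genes did not meet both limits, and how many genes had opposite ratios of a smaller size was not counted. LSS and STARD4 met the trametinib limit narrowly, with log2 ratios of 1.04 and 1.00. With TMM scaling LSS was at 0.97 and with median-of-ratios scaling at 0.98, both below 2-fold. The genes most like the 7 were sought among 10604 genes outside the lists with at least 50 counts in every library, by Euclidean distance over the 3 log2 ratios to control from the median profile of the 7 genes (-1.005, 0.91 and -0.68). The nearest were SNN at a distance of 0.08 and NANOS1 at 0.09, followed by MXRA8 (0.24), CGN (0.26), SCARA3 (0.27), DLL1 (0.28), HR (0.29), LYPD1 (0.29), CRIP2 (0.30) and SIPA1 (0.30). The 7 genes themselves lay between 0.22 (LSS) and 1.13 (INSIG1) from their own median profile. Like INSIG1, SREBF2 (0.39), FDFT1 (0.54) and SQLE (0.62) lay farther from it than all of these genes outside the lists. SNN had 423 reads (control), 224 (NBT), 772 (trametinib) and 284 (combination).

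The estimated counts of 4 of the 7 genes (SREBF2, HMGCS1, IDI1 and FDFT1) were not whole numbers in every library, and those of INSIG1, SQLE and LSS were exactly whole, with a tolerance of 0. RSEM divides a read that matches several genes among them, so the counts of those 4 genes are estimates in this respect too. The same held for 53.9% of all genes in the table, which had a count that was not whole in at least 1 library. At the transcript level, NM_003129.4 held 98.1% to 100% of the SQLE level in the 4 libraries, NM_004599.4 held 87% to 95.2% of SREBF2, NM_001145437.1 held 85.4% to 94.4% of LSS and NM_005542.6 held 77.7% to 86.1% of INSIG1. NM_004462.5 held 81.9% to 92.1% of FDFT1. In HMGCS1 and IDI1 no transcript was dominant in every library and shares differed between libraries. NM_002130.8 of HMGCS1 held 4.94% (control), 16.2% (NBT), 23.7% (trametinib) and 27.3% (combination), and NM_001098272.3 held 15.1%, 0%, 1.25% and 0%. For IDI1, XM_024447980.1 held 58% of its level in the control, 0% for NBT, 59% for trametinib and 40.8% for the combination. XM_024447979.1 took 63.2% of IDI1 with NBT. These transcripts share most of their sequence, so gene totals were used and no change of transcript was read from them.

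By RefSeq (GRCh38.p14), SREBF2 lies on chromosome 22 from 41833105 to 41907305, INSIG1 on chromosome 7 from 155297878 to 155310235 and HMGCS1 on chromosome 5 from 43287470 to 43313412. IDI1 lies on chromosome 10 from 1039152 to 1056704 and LSS on chromosome 21 from 46188446 to 46228774. FDFT1 and SQLE lie on 1 chromosome, 8, from 11795582 to 11839298 and from 124998505 to 125022283.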

How the data were processed

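RNA-seq of 4 libraries of MIA PaCa-2 cells was analysed. The submitters' processing notes name Bowtie2 2.2.5, RSEM 1.2.8 and hg38. The authors deposited, for each gene and transcript, an estimated count without normalization, a length-corrected TPM value, and FPKM values, whose 4 columns were not used here. Columns were matched to libraries by their abbreviated names. Whether the library preparation marked strand is not given in the sources used here, so reads of an overlapping antisense gene could not be told apart.

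Estimated counts were rounded and scaled to library sums with 0.5 reads added. An exact two-sided binomial test of each pair of libraries was adjusted by the Benjamini-Hochberg method over the genes that had 1 count or more in the pair. Calls required an adjusted value no higher than 0.05 and a ratio of 2-fold or more. Intervals of ratios are 95% Clopper-Pearson intervals, and those of departures from additivity are normal intervals from the 4 counts. Both use the counts alone, so they cover counting error only and no spread between cultures. Amplified reads are not independent molecules, so the intervals may be too narrow even for counting error. A count of 0 allows up to 3 counts, or 0.153 to 0.16 CPM.

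Named genes were the 7 members, every gene of the other lists called in any of 5 comparisons, the highest and lowest of each list in the combination against control, and the 10 nearest profiles. The members and lists were chosen with earlier results of these data known. A gene of the list of synthesis enzymes is not reported here, and the counts and medians of that list leave it out. Scripts used Python 3.11.15, scipy 1.17.1, R 4.3.3, edgeR 4.0.16 and DESeq2 1.42.0, and the test was checked on simulated data. Alternatives were TMM and median-of-ratios scaling, TPM with a pseudocount of 0.1, 5 added reads, summed transcript counts, a minimum of 10 counts, a 1.5-fold limit, and edgeR's negative binomial exact test, in which the coefficient of variation between cultures was assumed to be 0.2 or 0.4.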

Additional observations from a re-analysis of the deposited data

Results flagged for a closer look

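FDFT1 had opposite signs for trametinib with and without NBT. Its log2 ratio was 0.615 for trametinib against control and -0.13 for the combination against NBT, with counting intervals of 0.53 to 0.70 and -0.25 to -0.01. With 1 library per condition the difference was not tested against the spread between cultures. The other 6 genes were above 0 in both comparisons, though for IDI1 and SQLE the interval of the combination against NBT included 0.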

How the results depend on the processing

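With 1 library per condition, the spread between cultures is unknown, and the number of the 7 genes called depends on what is assumed for it. With an assumed coefficient of variation of 0.2, 1 gene (INSIG1) was called in NBT against control in place of 4, 0 in trametinib against control in place of 2, and 4 (INSIG1, HMGCS1, IDI1 and LSS) in the combination against trametinib in place of 7. With a coefficient of 0.4, 0 were called in each of these and 0 in the combination against control in place of 1. Calls over all genes went from 439, 995, 1416, 1041 and 738 (NBT, trametinib and combination against control, combination against trametinib and against NBT) to 69, 365, 547, 302 and 204 with 0.2 and to 4, 22, 51, 14 and 13 with 0.4. With a 1.5-fold limit they were 1125, 2012, 3112, 2428 and 1536, and 5 of the 7 genes were called in each of trametinib and combination against control. In trametinib against control 1 gene (HMGCS1) was called with TMM and with median-of-ratios scaling. With TPM values 2 genes (INSIG1 and IDI1) were called in the combination against control, and the median for NBT against control was -1.15 in place of -1.005. Of 175 recomputed log2 ratios of the 7 genes, 0 changed sign and the largest shift was 0.17, with TPM. The 35 recomputed departures from additivity ran from -0.82 to -0.14. No paired analysis was possible because each condition has 1 library, and for the same reason no library could be left out.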
